A study of Mus musculus with 6 samples.

Results

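The immunoglobulin genes of mouse inguinal white adipose tissue (iWAT, the fat pad under the skin of the groin) are described here, library by library. They were taken as every row of the deposited count table whose gene type is an immunoglobulin constant, variable, diversity or joining gene, which gave 264 of 54532 genes. These are 13 constant, 218 variable, 19 diversity and 14 joining genes. All belong to the heavy chain locus on chromosome 12, the kappa light chain locus on chromosome 6 or the lambda light chain locus on chromosome 16. The 6 libraries of total RNA come from old mice exposed to cold for 7 days, of which 3 had vehicle and 3 estrogen. Values of a group are given in the order of replicates 1, 2 and 3. The labels give no strain, sex, exact age, estrogen dose or route, and do not say whether each library is 1 animal. The p-values therefore reflect only how these samples vary, which may be technical. The series as a whole asks what estrogen does to beige adipocytes, the heat-producing cells of white fat, in old mice.

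An antibody is built from paired heavy and light chains, and each B cell assembles its own chains by joining a variable, a diversity (heavy chain only) and a joining segment upstream of a constant gene. The heavy chain constant gene sets the class: Ighm and Ighd encode IgM and IgD, which naive B cells carry together, and the Ighg, Ighe and Igha genes encode IgG, IgE and IgA after class switching. A B cell uses either a kappa or a lambda light chain, and in the mouse kappa is the usual one. Plasma cells secrete antibody and hold far more immunoglobulin RNA than resting B cells, so a few of them can set the level in a tissue. The cells of 1 clone share their heavy and light variable genes, but unrelated B cells can use the same ones, so the number of variable genes seen in a library gives no number of B cells. In bulk tissue more cells of a type and more RNA per cell cannot be told apart.

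The heavy and kappa variable genes that led vehicle replicates 2 and 3 and estrogen replicate 2 are shown by sequence. The account of variable gene use turns on them. Each line gives the last 120 bases of the coding part of the gene, 5′ to 3′ on the coding strand, from GENCODE M21 on the mm10 build. The capitals mark the motif TATTNNTGN, which codes for the tyrosine and cysteine close to the end where the next segment is attached. It was searched on the coding strand only and lies in the last 60 bases of 181 of the 218 variable genes (83.0%).
Ighv1-75: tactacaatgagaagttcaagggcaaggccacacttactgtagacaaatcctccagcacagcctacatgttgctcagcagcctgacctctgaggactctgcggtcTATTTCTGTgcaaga
Igkv1-117: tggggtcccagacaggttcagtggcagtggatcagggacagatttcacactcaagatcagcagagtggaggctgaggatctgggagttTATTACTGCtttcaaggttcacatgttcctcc
Ighv1-53: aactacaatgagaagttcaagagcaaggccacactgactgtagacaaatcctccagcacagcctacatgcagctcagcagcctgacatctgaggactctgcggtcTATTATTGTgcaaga
Igkv9-120: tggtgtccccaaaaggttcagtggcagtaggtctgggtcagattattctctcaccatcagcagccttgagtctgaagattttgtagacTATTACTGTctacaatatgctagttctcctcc
Ighv11-2: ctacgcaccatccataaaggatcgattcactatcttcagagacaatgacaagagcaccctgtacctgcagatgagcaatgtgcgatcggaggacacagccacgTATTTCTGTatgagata
Igkv14-126: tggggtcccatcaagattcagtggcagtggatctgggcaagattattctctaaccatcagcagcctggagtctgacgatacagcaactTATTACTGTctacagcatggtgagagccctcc

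The first pair, Ighv1-75 (chr12:115833950-115834418, minus strand) and Igkv1-117 (chr6:68121046-68121827, plus strand), led vehicle replicate 2. Ighv1-53 (chr12:115158403-115158835, minus strand) and Igkv9-120 (chr6:68049983-68050456, plus strand) led estrogen replicate 2. Ighv11-2 (chr12:114048241-114048812, minus strand) and Igkv14-126 (chr6:67896172-67896642, plus strand) led vehicle replicate 3 and came second in estrogen replicate 2. The joining segments, which complete the antigen-binding region, are too short to gather many counts. Ighj4 (chr12:113428514-113428567, minus strand), Igkj5 (chr6:70723886-70723927, plus strand) and Igkj4 (chr6:70723548-70723585, plus strand) had the most counts among them. Their capitals mark the motif TGGGGNNNNGGNAC in the heavy chain, found in 4 of 4 Ighj genes, and TTNGGNNNNGGNAC in kappa, found in 4 of 5 Igkj genes on the coding strand. Both code for the conserved residues with which the framework resumes after the joint.
Ighj4: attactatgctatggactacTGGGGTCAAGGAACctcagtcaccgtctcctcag
Igkj5: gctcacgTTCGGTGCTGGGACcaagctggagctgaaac
Igkj4: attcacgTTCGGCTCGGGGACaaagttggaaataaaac

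Immunoglobulin reads were a small part of every library. Of total counts between 16046601 and 20736771, the 264 genes took 2634, 6430 and 12108 with vehicle and 9088, 4814 and 14556 with estrogen. That is 0.0138, 0.0338 and 0.0584% of the vehicle libraries and 0.0472, 0.0300 and 0.0884% of the estrogen libraries. The groups overlap on this total, and vehicle replicate 1 is the lowest of all. A count was seen for 181 of the 264 genes, 83 had none, and 14 were seen in all 6 libraries. At least 1 count in the group was seen for 116 genes with vehicle and 172 with estrogen. The detection floor used is 3 counts, or 0.130 to 0.209 CPM depending on the library. CPM is a gene's count scaled to a common library size, here adjusted by the trimmed mean method (TMM), and it is not corrected for gene length unless given per kb.

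No immunoglobulin gene passed the test across all genes. The low-count filter kept 20 members, 9 constant and 11 variable genes, and left 244 out. By edgeR's quasi-likelihood test with Benjamini-Hochberg adjustment over 15591 genes, 0 of the 20 passed an adjusted p of 0.05, as did 0 of all genes tested (percent called 0). At an unadjusted p under 0.05, 3 members lay higher and 0 lower, beside 9.49% higher and 10.9% lower among all genes tested (20.4% in either direction). The log2 fold change was positive for 18 of the 20, against 50.3% of all genes, and its median was 1.47, against 0.0025 for all genes. The filter can favour genes that are high in 1 group, so the signs of these 20 do not stand for all members and support nothing about them.

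The calls depended on the tool and on the libraries. DESeq2 called 2 of the 20 members, Ighg2b and Ighd, beside 5.41% of all genes (2.46% called higher), and limma-voom called 0. Without estrogen replicate 2, edgeR called Ighd and Ighg1 among 39 members tested, beside 0.0803% of all genes. Without estrogen replicates 1 and 3 it called Ighg2b among 40, beside 0.00595% of all genes, with the lone estrogen library assumed to vary like the vehicle group. The libraries to leave out were chosen with the values known, so these calls restate in which libraries the counts of these genes lie and are no independent support. At an unadjusted p under 0.05, 4 to 19 members passed when any 1 library was left out, beside 9.05 to 20.2% of all genes, and 7 without estrogen replicates 1 and 3, beside 9.64%.

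The immunoglobulin genes as a sum overlapped between the treatments, and the sum without Ighm did not. All members together stood at 134, 325 and 525 CPM with vehicle and 471, 315 and 1014 CPM with estrogen, a log2 ratio of group means of 0.87. Estrogen replicate 2 lay below vehicle replicates 2 and 3, and estrogen replicate 1 below vehicle replicate 3. With Ighm taken out, the rest stood at 23.5, 101 and 136 CPM with vehicle and 258, 172 and 397 CPM with estrogen, a log2 ratio of 1.67. Every estrogen library was above every vehicle library on this sum. Both are sums over genes chosen with earlier results known, so no test is given for them.

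Ighm, the IgM heavy chain and the member with the most counts, overlapped between the groups. It stood at 110, 225 and 389 CPM with vehicle and 213, 143 and 616 CPM with estrogen (chr12:113418558-113422730). The means were 241 ± 140 CPM with vehicle and 324 ± 255 CPM with estrogen (SD, n = 3 libraries each). The 3 vehicle libraries lie within or below the range of the estrogen ones, and estrogen replicate 3 alone is the highest. For Ighm the log2 fold change was 0.43 ± 0.62 (SE; edgeR adjusted p = 0.713), and it was -0.44 without estrogen replicate 3 and -0.75 without estrogen replicates 1 and 3.

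Ighd, the IgD heavy chain that marks naive B cells, was high in 2 of the 3 estrogen libraries only. It stood at 1.02, 2.68 and 2.39 CPM with vehicle and 53.8, 1.31 and 40.05 CPM with estrogen (chr12:113406604-113416324). Estrogen replicate 2 lay within the vehicle range, while replicates 1 and 3 were far above it. The log2 fold change was 3.96 ± 1.12 (SE; edgeR adjusted p = 0.207, DESeq2 adjusted p = 0.0340), and it was -0.62 without estrogen replicates 1 and 3. Per 100 Ighm counts there were 0.921, 1.19 and 0.614 Ighd counts with vehicle and 25.2, 0.917 and 6.50 with estrogen.

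The 4 IgG genes together were higher in every estrogen library than in any vehicle library. Their sum stood at 0.610, 11.2 and 2.04 CPM with vehicle and 34.9, 59.1 and 21.6 CPM with estrogen, a log2 ratio of group means of 3.06. The value nearest to the estrogen range was vehicle replicate 2, and the log2 ratio was 4.86 without it. Different IgG genes made up the sum in different libraries.

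Ighg2b was the IgG gene that separated the groups. Its counts were 12, 14 and 26 with vehicle and 201, 899 and 110 with estrogen, which is 0.610, 0.708 and 1.13 CPM against 10.4, 58.9 and 7.66 CPM (chr12:113302965-113307933). The lowest estrogen library was thus well above the highest vehicle library, and estrogen replicate 2 was the highest. The log2 fold change was 4.95 ± 0.91 (SE; edgeR adjusted p = 0.207, DESeq2 adjusted p = 1.89e-08). It lay between 3.45 and 5.38 when any 1 library was left out, and was 6.15 without estrogen replicates 1 and 3. Among tested members, 2 had all estrogen libraries above all vehicle libraries, Ighg2b and the variable gene Igkv5-43, and 0 the reverse, beside 12.8% and 14.7% of all genes tested.

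Ighg2c, Ighg1 and Ighg3, the other IgG genes, did not separate the groups. Ighg2c had 0, 206 and 1 counts with vehicle and 366, 1 and 140 counts with estrogen. It was therefore high in vehicle replicate 2 and in estrogen replicates 1 and 3 and close to nothing in the other 3 libraries (log2 fold change 1.47 ± 1.83, SE; edgeR adjusted p = 0.661). Ighg1 had 0, 1 and 1 counts with vehicle and 76, 0 and 50 counts with estrogen. Pooled over the libraries the ratio of rates was 80.5 (95% interval 21.8 to 672, exact, counting error only), and estrogen replicate 2 had none. Ighg3 had 0, 0 and 19 counts with vehicle and 30, 3 and 10 counts with estrogen. The coding sequences of Ighg2b and Ighg2c are 85.9% identical, the closest pair among the 4, and how reads fitting both were counted is not given in the sources used here.

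Igha, the IgA heavy chain, overlapped between the groups. It stood at 0.813, 4.40 and 7.72 CPM with vehicle and 3.94, 6.29 and 6.06 CPM with estrogen, with vehicle replicate 1 lowest and vehicle replicate 3 highest. Its log2 fold change was 0.32 (edgeR adjusted p = 0.803), and it was -0.16 without vehicle replicate 1. Ighe, the IgE heavy chain, had 1 count each in estrogen replicates 1 and 3 and 0 elsewhere, which is under the floor in every library. In vehicle replicate 1, with the fewest heavy chain constant counts, a count of 0 allows a share of up to 0.166% (upper end of the exact 95% interval).

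**Figure D1:**
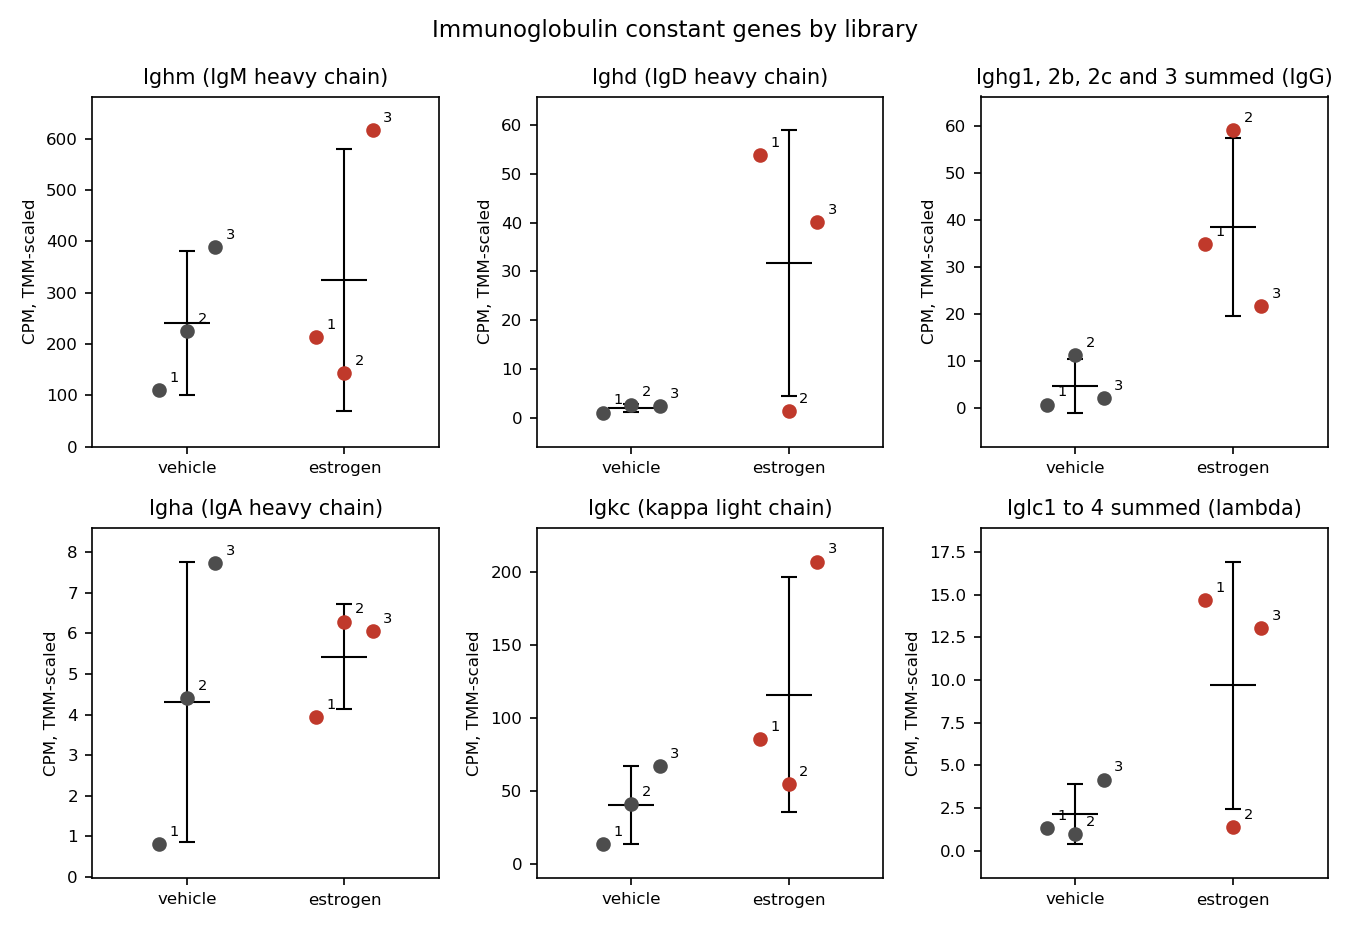
Points are TMM-scaled CPM of the constant genes in each library (numbers are replicates), with the mean (bar) and SD of 3 libraries per group. The IgG sum lies between 21.6 and 59.1 CPM with estrogen and at 11.2 CPM or less with vehicle, whereas Ighd is high in estrogen replicates 1 and 3 only.

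Within the heavy chain constant counts, the IgM share was lower in every estrogen library. Ighm took 97.8, 92.5 and 97.0% with vehicle and 69.7, 68.2 and 90.1% with estrogen, or 95.8 ± 2.87% against 76.0 ± 12.2% (SD, n = 3 each). The groups do not overlap, although vehicle replicate 2 and estrogen replicate 3 are only a little apart. Their exact binomial 95% intervals were 91.7 to 93.2% and 89.5 to 90.7%, which cover counting error only. Per kb of gene length, which the deposited table gives, the mean share was 78.2% with estrogen and 95.8% with vehicle.

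What filled the remainder differed between the estrogen libraries. Ighd took 17.6, 0.625 and 5.85% of heavy chain constant counts with estrogen and 0.901, 1.10 and 0.595% with vehicle. The IgG genes took 11.4, 28.2 and 3.16% with estrogen and 0.541, 4.6 and 0.509% with vehicle, so vehicle replicate 2 exceeded estrogen replicate 3. Igha took 1.29, 3.0 and 0.886% with estrogen and 0.721, 1.81 and 1.93% with vehicle. In estrogen replicate 2 the remainder was mostly IgG, and in estrogen replicates 1 and 3 IgD was the largest single class in it.

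The IgG counts were nearly of 1 kind in some libraries and mixed in others. Ighg2b made up 29.9, 99.6 and 35.5% of the IgG counts with estrogen, and 100, 6.34 and 55.3% with vehicle, where the first rests on 12 counts. Ighg2c made up 54.4, 0.111 and 45.2% with estrogen and 0, 93.2 and 2.13% with vehicle. Vehicle replicate 2 and estrogen replicate 2 were thus each close to a single IgG gene, Ighg2c in the former and Ighg2b in the latter.

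**Figure D2:**
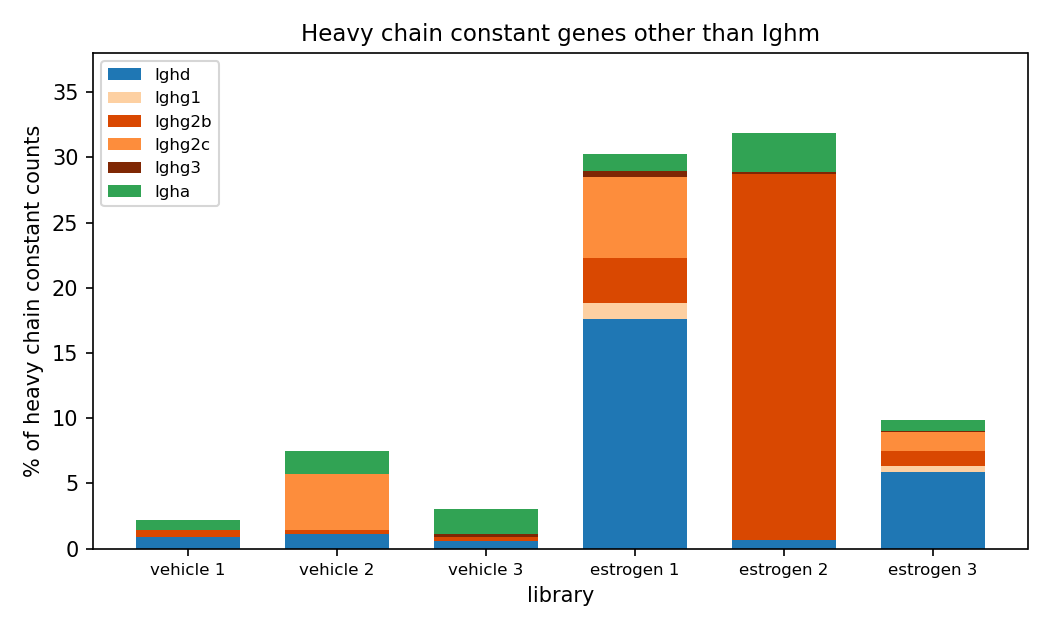
Bars show the share of heavy chain constant counts, in percent, taken by each gene other than Ighm in each library; Ighm fills the rest, and Ighe, with 2 counts in all, is not drawn. Estrogen replicates 1 and 2 reach similar heights with different genes, Ighd and several IgG genes in the former and Ighg2b in the latter.

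The kappa constant gene Igkc was higher in most estrogen libraries, with some overlap, and its level relative to the heavy chain separated the groups. Igkc stood at 13.9, 41.1 and 67.2 CPM with vehicle and 85.6, 55.0 and 207 CPM with estrogen (chr6:70726435-70726966). Estrogen replicate 2 lay below vehicle replicate 3, and the other estrogen libraries lay above all vehicle libraries. The log2 fold change was 1.51 ± 0.65 (SE; edgeR adjusted p = 0.249).

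Relative to the heavy chain, the 3 estrogen libraries were close to each other, estrogen replicate 2 included. Per kb, Ighm was at 2.24, 1.54 and 1.63 times the level of Igkc with vehicle and at 0.703, 0.732 and 0.840 times with estrogen. The log2 ratio of Igkc to Ighm counts was 1.24 higher with estrogen, or 2.36-fold. It was between 1.07 and 1.34 higher when any 1 library was left out, and 1.28 higher without estrogen replicates 1 and 3. Against all heavy chain constant counts, there were 12.3, 16.9 and 16.7 Igkc counts per 100 with vehicle and 28.0, 26.2 and 30.3 with estrogen. That difference was 0.89 on the log2 scale, or 1.85-fold. Both ratios were chosen after the values had been seen, so they are a description and no test is given.

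The lambda constant genes were few and mostly followed estrogen replicates 1 and 3. Together they stood at 1.32, 0.961 and 4.17 CPM with vehicle and 14.7, 1.38 and 13 CPM with estrogen. Estrogen replicate 2 lay within the vehicle range, and the log2 ratio of 2.17 was -0.64 without the other estrogen libraries. Iglc1 had 17, 4 and 30 counts with vehicle and 60, 9 and 66 with estrogen (log2 fold change 1.79, edgeR adjusted p = 0.266). Iglc2 had 5, 13 and 59 counts with vehicle and 139, 10 and 95 with estrogen (log2 fold change 2.04, edgeR adjusted p = 0.284). Iglc3 had 4, 2 and 7 counts with vehicle and 82, 2 and 26 with estrogen. Iglc2 and Iglc3 are 96.2% identical in coding sequence, so their separate counts are uncertain. Iglc4 had 2 counts in all, both in estrogen replicate 1.

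The lambda share of light chain constant counts did not separate the groups. It was 8.70, 2.29 and 5.84% with vehicle and 14.6, 2.44 and 5.92% with estrogen. Both second replicates were near the bottom, and estrogen replicate 1 was highest.

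The 3 lambda variable genes overlapped between the groups, with Iglv1 and Iglv2 highest in estrogen replicate 3 and Iglv3 in estrogen replicate 1. Iglv1 had 4, 12 and 39 counts with vehicle and 51, 13 and 68 with estrogen (log2 fold change 1.69, edgeR adjusted p = 0.282). Iglv2 had 1, 16 and 10 counts against 15, 7 and 29 (log2 fold change 1.30, edgeR adjusted p = 0.40), and Iglv3 had 1, 6 and 0 against 43, 0 and 15. Iglv1 and Iglv2 are 96.9% identical and could share reads, while Iglv3 is far from both (57.6% identical to Iglv1).

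**Figure D3:**
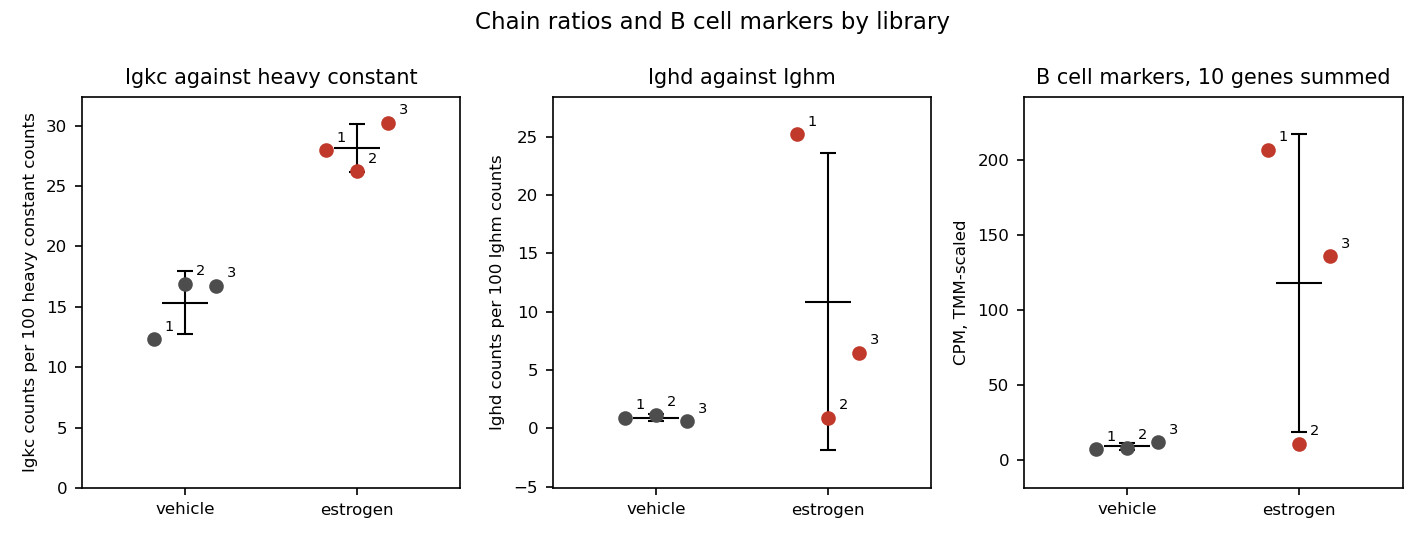
Points are the 6 libraries (numbers are replicates) with the mean and SD of each group, for Igkc counts per 100 heavy chain constant counts, Ighd counts per 100 Ighm counts, and the summed TMM-scaled CPM of 10 B cell marker genes. The first ratio lies between 26.2 and 30.3 in all estrogen libraries and at most at 16.9 with vehicle, while the other panels are high in estrogen replicates 1 and 3 only.

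Heavy chain variable genes as a sum were somewhat higher in every estrogen library after TMM scaling. By library totals alone the groups overlap, since vehicle replicate 3 (425 of 20736771 counts) lay slightly above estrogen replicate 2 (318 of 16046601). The 113 Ighv genes stood at 2.13, 15.0 and 18.4 CPM with vehicle and 21.1, 20.8 and 35.0 CPM with estrogen, a log2 ratio of 1.11. Vehicle replicate 1 was lowest, with 42 counts over all Ighv genes. The 102 Igkv genes stood at 3.30, 23.0 and 31.8 CPM with vehicle and 32.2, 26.3 and 62.6 CPM with estrogen, a log2 ratio of 1.06, and here the groups overlap. Per 100 heavy chain constant counts there were 1.89, 6.16 and 4.6 Ighv counts with vehicle and 6.91, 9.94 and 5.11 with estrogen.

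Many variable genes had most of their counts in 1 library. Of 82 variable genes with at least 10 counts in all, 25 had at least 80% of their summed CPM in 1 library, a limit chosen after the values were seen. These were 3 genes in vehicle replicate 2, 7 in estrogen replicate 1, 2 in estrogen replicate 2 and 13 in estrogen replicate 3. A gene confined to 1 library can reach 10 counts only through that library. The numbers per library are therefore description only and say nothing about the treatments. Libraries with more counts can hold more such genes.

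In vehicle replicate 2, 1 heavy and 1 kappa gene took most of the counts. Ighv1-75 had 228 of 296 Ighv counts (77%, exact 95% interval 71.8 to 81.7%) and Igkv1-117 had 309 of 454 Igkv counts (68.1%). This library was also the only vehicle library with more than 1 Ighg2c count. Outside it, Ighv1-75 had at most 0.735% of Ighv counts in any library, and Igkv1-117 at most 4.50% of Igkv counts. For Igkv1-117 the log2 fold change was -2.43 ± 1.81 (SE; edgeR adjusted p = 0.462), and it was 2.39 without vehicle replicate 2.

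Estrogen replicate 2 had the same form with other genes. Ighv1-53 had 191 of 318 Ighv counts (60.1%) and Igkv9-120 had 195 of 402 Igkv counts (48.5%), beside the 899 Ighg2b counts of this library. In the other libraries Ighv1-53 took at most 6.76% of Ighv counts and Igkv9-120 at most 4.62% of Igkv counts. The nearest other sequences in the annotation are 96.3% identical to Ighv1-53 and 95.2% identical to Igkv9-120.

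Ighv11-2 and Igkv14-126 were high together in 2 libraries, 1 of each treatment. As background, this pair forms a known receptor for phosphatidylcholine in a B cell subset of the body cavities. Ighv11-2 had 21.4% of Ighv counts in vehicle replicate 3 (91 of 425) and 15.7% in estrogen replicate 2 (50 of 318), and between 1.35 and 3.92% in the others. Igkv14-126 had 19.4% of Igkv counts in vehicle replicate 3 (142 of 732) and 19.2% in estrogen replicate 2 (77 of 402), and between 2.42 and 7.69% in the others. Their log2 fold changes were 0.26 for Ighv11-2 (edgeR adjusted p = 0.919) and 0.59 for Igkv14-126 (edgeR adjusted p = 0.774). Whether both chains came from the same cells cannot be read from bulk counts. Ighv11-2 differs from Ighv11-1 at 4 of its 353 bases, and Ighv11-1 had 1 count in all.

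In the remaining libraries the leading Ighv and Igkv genes took smaller shares than those leading vehicle replicate 2 and estrogen replicate 2. In estrogen replicate 3, Ighv1-26 led with 130 of 502 Ighv counts (25.9%) and Igkv5-48 with 124 of 899 Igkv counts (13.8%). In estrogen replicate 1, Ighv1-7 led with 45 of 408 (11%) and Igkv10-96 with 75 of 622 (12.1%). In vehicle replicate 1, Ighv2-2 had 12 of 42 counts and Igkv4-59 had 13 of 65, too few for a close estimate (exact 95% intervals 15.7 to 44.6% and 11.1 to 31.8%). The leading lambda gene was Iglv1 in 5 libraries and Iglv2 in vehicle replicate 2.

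Other genes among the 10 of each chain with the highest mean CPM were also led by 1 or 2 libraries. Ighv2-2 and Ighv1-42 took 18.6 and 17.9% of Ighv counts in vehicle replicate 3, and Ighv7-3 took 14.5% in estrogen replicate 3. Ighv2-9 took 7.53% in vehicle replicate 3 and 9.96% in estrogen replicate 3, where Ighv9-3 also took 9.96%. Igkv3-2 and Igkv6-23 took 15.4 and 12.7% of Igkv counts in vehicle replicate 3. Igkv1-110 took 10.1%, Igkv4-74 took 9.90% and Igkv8-24 took 8.34% in estrogen replicate 3, and Igkv4-74 had no count in any other library. None of these sets the estrogen libraries apart as a group.

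**Figure D4:**
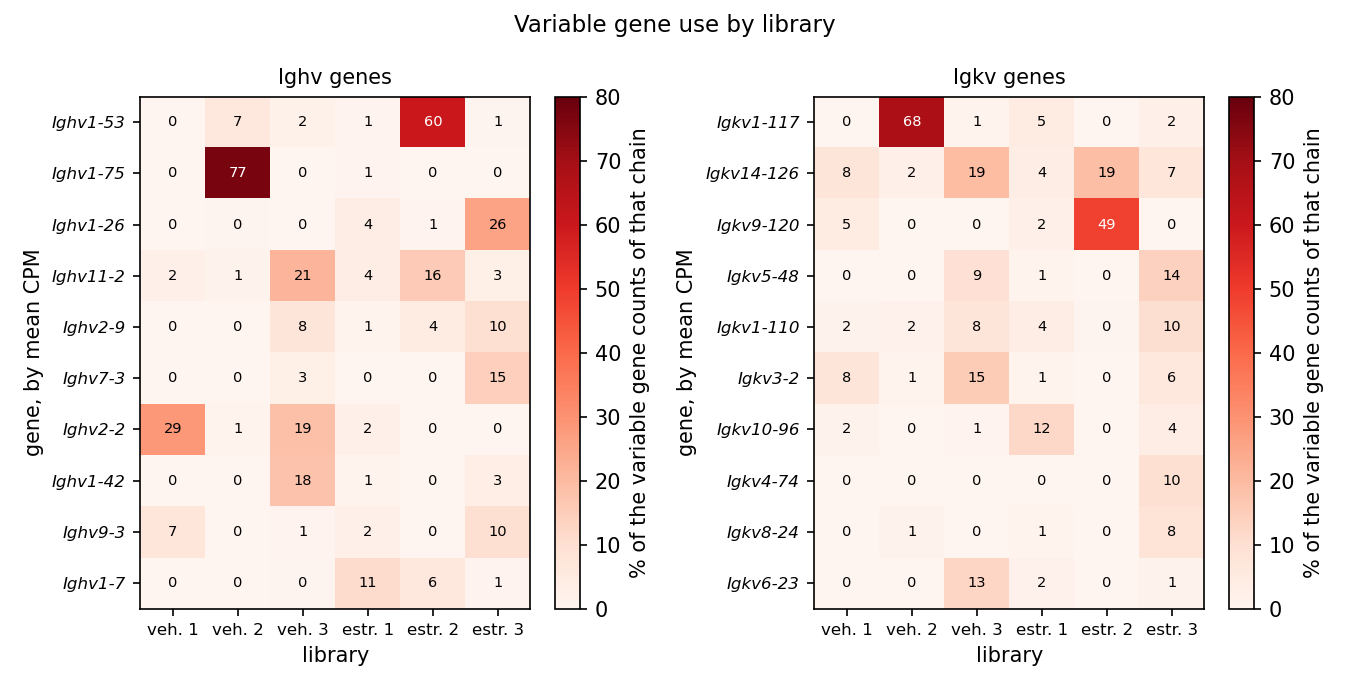
Each cell gives a gene's share, in percent, of the Ighv (left) or Igkv (right) counts of 1 library, for the 10 genes of each chain with the highest mean CPM. Single genes dominate vehicle replicate 2 (77 and 68.1%) and estrogen replicate 2 (60.1 and 48.5%), and Ighv11-2 with Igkv14-126 recur in vehicle replicate 3 and estrogen replicate 2.

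Igkv5-43 was the variable gene with the smallest p. It had 0, 1 and 0 counts with vehicle and 14, 13 and 26 counts with estrogen. The gene passed the low-count filter only through its estrogen counts, so its p and fold change are description and no support. Every estrogen library, replicate 2 included, was above every vehicle library, and the pooled ratio of rates was 67.7 (95% interval 11.6 to 2724, exact, counting error only). The log2 fold change was 5.62 ± 0.89 (SE; edgeR adjusted p = 0.207), and DESeq2 gave no adjusted p. Igkv5-43 differs from Igkv5-45 at 5 of 347 bases, and Igkv5-45 had 0, 4 and 1 counts with vehicle and 0 with estrogen. The summed counts of both genes would still be higher in each estrogen library. On the lower side only Igkv1-117 and Igkv1-135 had a negative log2 fold change, and Igkv1-135 had 2, 8 and 47 counts with vehicle and 13, 0 and 9 with estrogen (-0.96, edgeR adjusted p = 0.653).

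Over all 181 members with a count, 14 had every estrogen library above every vehicle library and 0 the reverse. Among all 27593 genes with a count the shares were 9.02% and 9.43%. Of the 14, Ighg2b is a constant gene, 3 are joining genes (Ighj3, Ighj4 and Igkj4) and 10 are variable genes. The variable genes among them that the text names elsewhere are Ighv1-26, Ighv1-7 and Igkv5-43. Most of the 14 rest on a few counts per library.

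The number of different variable genes was highest in estrogen replicate 1 and low in both second replicates. Counts were seen for 10, 18 and 37 Ighv genes with vehicle and for 60, 16 and 45 with estrogen. Drawn down to 42 Ighv counts each, the depth of the shallowest library, the expected numbers were 10, 7.34 and 13.8 with vehicle and 25.3, 7.99 and 15.8 with estrogen. At 296 counts, without vehicle replicate 1, they were 18 and 32.5 with vehicle and 57.0, 15.7 and 38.6 with estrogen. The groups overlap at either depth, since estrogen replicate 2 was as narrow as vehicle replicate 2.

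Igkv genes gave the same order at the top. Counts were seen for 15, 23 and 29 Igkv genes with vehicle and 65, 21 and 54 with estrogen, and at 65 counts each the expected numbers were 15, 10.6 and 16.5 with vehicle and 31.4, 10.6 and 23.1 with estrogen. The effective number of genes, which weights each by its share and falls when a few dominate, was 6.04, 1.67 and 7.86 with vehicle and 26.4, 2.54 and 8.53 with estrogen for Ighv. For Igkv it was 8.43, 2.08 and 9.66 with vehicle and 25.6, 3.47 and 15.4 with estrogen. Estrogen replicate 1 had the highest effective number for both chains. This measure also rises with the number of genes seen, and the libraries were not drawn down to equal counts for it.

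**Figure D5:**
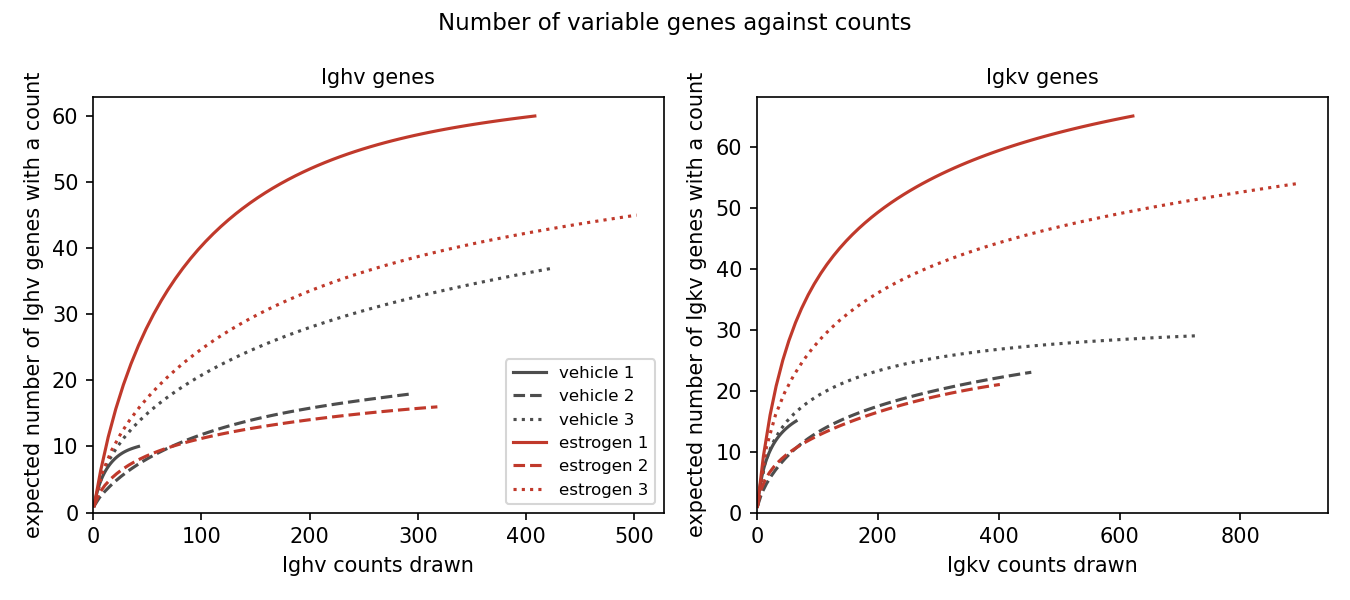
Curves give the expected number of Ighv (left) or Igkv (right) genes with a count when the counts of a library are drawn down to the number on the x axis; colour is the treatment and line style the replicate. Estrogen replicate 1 is the highest curve for both chains, and estrogen replicate 2 runs close to vehicle replicate 2.

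By family, the group of variable genes that shares a number and a related sequence, Ighv1 was the largest heavy chain family but its share did not separate the groups. It took 16.7, 89.5 and 31.8% of Ighv counts with vehicle and 54.2, 67.3 and 49.2% with estrogen. Vehicle replicate 2, with Ighv1-75, was the highest. The Ighv2 family took 50.0, 1.35 and 26.6% with vehicle and 5.64, 4.40 and 13.5% with estrogen. In kappa, Igkv1 took 4.62, 71.6 and 15.4% with vehicle and 13, 0.995 and 13.6% with estrogen, and Igkv4, with 26 genes the largest family, took 36.9, 15.2 and 4.78% against 18.8, 1.99 and 16.9%.

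In 3 small families every estrogen library was above every vehicle library, and in 0 families the reverse. No other family separated the groups. Among all single genes with a count the shares were 9.02% and 9.43%, but those compare CPM and not family percentages. No such share is at hand for families, so the 3 families are given as description only and support nothing. Ighv8 took 0, 1.01 and 0.941% of Ighv counts with vehicle and 4.17, 1.89 and 1.39% with estrogen, and rests on 37 counts in all. Igkv2 took 0, 0.220 and 0.137% of Igkv counts against 0.965, 4.23 and 0.222%, from 27 counts. Igkv13 took 0% in each vehicle library against 0.322, 0.249 and 0.445%, from 7 counts. For Igkv2 and Igkv13 some of the estrogen values are under the floor of 3 counts.

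Joining genes were few in counts and followed estrogen replicates 1 and 3. All 14 together had 3, 12 and 15 counts with vehicle and 105, 13 and 61 counts with estrogen. In kappa, Igkj5 had 1, 0 and 4 counts with vehicle and 21, 1 and 17 with estrogen, and Igkj4 had 0, 0 and 2 against 17, 3 and 15. Igkj3, which lacks the motif shown for the other kappa joining genes and is known not to be used in functional chains, had 0, 0 and 5 counts against 17, 1 and 3. Igkj2 had 0, 1 and 0 counts against 8, 0 and 13, and Igkj1 had 6 counts in estrogen replicate 1 and 0 elsewhere.

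In the heavy chain, Ighj4 had 0, 4 and 3 counts with vehicle and 23, 4 and 6 with estrogen. Ighj3 had 2, 2 and 0 counts against 5, 2 and 4, Ighj2 had 0, 3 and 1 against 1, 0 and 1, and Ighj1 had 0, 2 and 0 against 3, 2 and 0. Among lambda joining genes, Iglj1 had 3 counts in all, Iglj3 had 2, Iglj3p had 1, and Iglj2 and Iglj4 had 0. Of the 19 diversity genes 18 had no count, and Ighd1-1 had 4 counts, all in estrogen replicate 1. No joining or diversity gene passed the low-count filter.

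Genes that mark whole B cells were high in the same estrogen libraries as Ighd. The 10 B cell markers summed to 7.01, 7.99 and 11.6 CPM with vehicle and to 207, 10.8 and 136 CPM with estrogen. Of these, 6 were tested, all 6 lay higher at an unadjusted p under 0.05 (9.49% of all genes tested), and 0 passed the adjusted threshold (edgeR). The low-count filter can favour genes that are high in 1 group, so this count is description and no support. Ms4a1, which encodes the surface protein CD20, stood at 0.254, 0.304 and 0.434 CPM with vehicle and 25.9, 0.524 and 11.1 CPM with estrogen. Cd79a and Cd79b, the signalling chains of the receptor, had log2 fold changes of 4.75 and 2.83 (edgeR adjusted p = 0.207 for both). Estrogen replicate 2 was close to the vehicle libraries on these 3 genes, although its Ighg2b was the highest of all.

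T cell markers, a sign of other lymphocytes, were high in estrogen replicate 1. Their 8 genes summed to 4.57, 5.52 and 8.98 CPM with vehicle and 75.4, 7.53 and 15.2 CPM with estrogen, with Cd3e at 0.508, 0.304 and 0.304 CPM against 8.03, 0.131 and 1.46 CPM. Of 7 tested, 6 lay higher at an unadjusted p under 0.05 (9.49% of all genes tested) and 0 passed the adjusted threshold (edgeR). Among these 6, Cd3d and Cd8a passed the low-count filter only through their estrogen counts. The count of 6 is therefore description and no support. Markers of lymph node stroma and of its vessels summed to 194 to 310 CPM with vehicle and 267 to 412 CPM with estrogen, mostly from Enpp2, which other cells of fat express too. Of the defining genes in that list, Ccl21a stood at 9.90 CPM in estrogen replicate 1 and at 1.48 CPM or less elsewhere, Glycam1 at 1.92 CPM in estrogen replicate 1 and 0.279 CPM or less elsewhere, and Ccl19 had 1 count in all. Chst4, also in the list, had 7 counts in estrogen replicate 1, 2 in estrogen replicate 3 and 0 elsewhere. Enpp2, Cxcl13 and Madcam1 were not highest in estrogen replicate 1. Cxcl13, which draws B cells into follicles, stood at 31.1, 6.22 and 23.2 CPM with vehicle and 29.0, 11.2 and 53.8 CPM with estrogen. Madcam1, an adhesion molecule of lymphoid vessels, stood at 1.07, 0.354 and 0.304 CPM against 0.881, 1.37 and 0.557 CPM. The part of B cell, T cell or lymph node RNA in the immunoglobulin values of estrogen replicates 1 and 3 was not tested.

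Markers of antibody-secreting cells went in different directions. Of 9 tested, 1 lay higher (Mzb1) and 3 lower (Sdc1, Fkbp11 and Prdm1) at an unadjusted p under 0.05, beside 9.49% and 10.9% of all genes, and 0 passed the adjusted threshold (edgeR). Jchain, the joining chain of secreted IgM and IgA, stood at 5.08, 8.65 and 16.3 CPM with vehicle and 14.5, 8.97 and 36.5 CPM with estrogen (log2 fold change 0.99 ± 0.59, SE; edgeR adjusted p = 0.361). Mzb1, a helper of antibody assembly, stood at 0.102, 0.304 and 0.651 CPM against 2.64, 0.655 and 3.48 CPM (log2 fold change 2.63 ± 0.78, SE; edgeR adjusted p = 0.207). Estrogen replicate 2 was level with vehicle replicate 3 in Mzb1. Sdc1 stood at 39.0, 64.5 and 42.3 CPM against 26.6, 38.8 and 15.9 CPM, but it is also made by other cells of fat. Prdm1, the regulator that drives plasma cell formation, and Fkbp11, a folding enzyme of secretory cells, had log2 fold changes of -0.89 and -1.51 (edgeR adjusted p = 0.208 and 0.212). Irf4 and Eaf2, also in the list, had log2 fold changes of 1.30 and 0.42 (edgeR adjusted p = 0.307 and 0.453). In all, 5 of the 9 tested had a positive log2 fold change. Tnfrsf17, the receptor of mature plasma cells, was at 0.694 CPM or less in every library. The plasma cell list as a whole summed to 301 to 314 CPM with vehicle and 265 to 494 CPM with estrogen, most of it Xbp1, which many tissues express. In estrogen replicate 3, Irf4 gave 129 CPM of the sum.

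Of the germinal centre markers, which stand for the sites where B cells mature their antibodies, Rgs13 was at 0.207 CPM or less in every library. The list summed to 98.2 to 126 CPM with vehicle and 16.9 to 64.6 CPM with estrogen, nearly all from Bcl6, S1pr2 and Mki67, which are not limited to germinal centres. As for the tissue itself, adipocyte markers summed to 10484 to 13760 CPM with vehicle and 14869 to 22334 CPM with estrogen, most of it Fabp4. Fabp4 and Adipoq were higher in every estrogen library, as were 12.8% of all genes tested, whereas Plin1, Cidec and Lep overlapped between the groups. The mean of Lep was lower with estrogen (106 against 176 CPM). Epithelial markers of skin or mammary gland were at 0.518 CPM or less in sum, with Krt14 and Krt5 at 0, and dendritic cell markers summed to 35.7 to 46.6 CPM over all libraries.

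The wider pathway of antibody assembly, secretion and reception showed no common direction. Of 51 genes listed, 47 had a count and 35 were tested, and 0 passed the adjusted threshold, with 6 higher and 10 lower at an unadjusted p under 0.05 (edgeR; 9.49% and 10.9% of all genes). Their median log2 fold change was -0.04, against 0.0025 for all genes. The recombinase genes Rag1 and Rag2 and the surrogate light chain genes Igll1 and Vpreb2, all of developing B cells, had no count in any library, while Dntt and Vpreb1 were at 0.466 CPM or less.

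Among class switch and repair genes, Ung stood at 7.37, 3.44 and 7.25 CPM with vehicle and 9.90, 11.3 and 11.8 CPM with estrogen (log2 fold change 0.87, edgeR adjusted p = 0.209). Polh stood at 14.8, 13.2 and 13.5 CPM against 11.4, 11.4 and 9.54 CPM (-0.36, edgeR adjusted p = 0.240). Within the receptor pathway, Syk and Btk, kinases that macrophages use as well, had log2 fold changes of -0.99 and -0.82 (edgeR adjusted p = 0.207 and 0.235). They thus pointed the other way from Cd79a and Cd79b, which belong to B cells.

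The endoplasmic reticulum chaperones Hspa5 and Hsp90b1, on which antibody folding depends and which all secretory cells use, lay lower with estrogen. Hspa5 stood at 718, 627 and 513 CPM with vehicle and 338, 432 and 368 CPM with estrogen (log2 fold change -0.71 ± 0.18, SE; edgeR adjusted p = 0.207). Hsp90b1 stood at 381, 371 and 270 CPM against 217, 212 and 239 CPM (-0.61 ± 0.17, SE; edgeR adjusted p = 0.207). The groups do not overlap for either gene, which also holds, with estrogen lower, for 14.7% of all genes tested.

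Of 14 listed receptors and transporters of antibody 10 were tested, and 0 passed the adjusted threshold (edgeR). At an unadjusted p under 0.05, 1 lay higher and 3 lower (Fcgr2b, Fcgr3 and Fcer1g), beside 9.49% and 10.9% of all genes tested. Fcgr2b, the inhibitory IgG receptor of B cells and macrophages, stood at 160, 199 and 153 CPM with vehicle and 77.6, 102 and 47.9 CPM with estrogen (log2 fold change -1.17 ± 0.27, SE; edgeR adjusted p = 0.207). Fcgr1, the high-affinity IgG receptor, stood at 40.7, 20.8 and 15.4 CPM against 10.3, 19.7 and 4.32 CPM. Fcgrt, which recycles IgG, had a log2 fold change of -0.30, and Pigr, which carries IgA and IgM across epithelia, stood at 1.81 CPM or less. The member that lay higher was Fcrl1, a receptor-like protein of B cells, at 0.407, 0.253 and 0.564 CPM with vehicle and 7.67, 0.524 and 4.6 CPM with estrogen (log2 fold change 3.36, edgeR adjusted p = 0.207). Fcer2a, the low-affinity IgE receptor, stood at 0, 0.304 and 0.217 CPM against 17.4, 0.327 and 13.8 CPM, and Fcmr, the IgM receptor, at 0.305, 0.354 and 0.130 CPM against 11.2, 0.0655 and 7.66 CPM. All 3 were high in estrogen replicates 1 and 3, as the B cell markers were.

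Of the survival factors, Tnfsf13b (BAFF) and Tnfsf13 (APRIL) had log2 fold changes of -0.30 and -0.52 (edgeR adjusted p = 0.519 and 0.572). Tnfrsf13c, the BAFF receptor of mature B cells, stood at 0, 0.101 and 0.130 CPM with vehicle and 6.58, 0.196 and 3.97 CPM with estrogen, again high in estrogen replicates 1 and 3.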

How the data were processed

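The values are raw counts of reads for each of 54532 genes, deposited by the authors in 1 table beside coordinates and gene lengths in bases. Per the submitters' processing notes, reads were aligned with HISAT2 to mm10 and counted with featureCounts. Versions, strandedness and the handling of multi-mapping reads were not given in the sources used here. All 264 members matched GENCODE M21 by gene ID, with the same coordinates. Total counts were 16046601 to 20736771 per library, and no pair within a group agreed within sampling noise (chi-square per degree of freedom 41.7 to 88.6).

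Counts were filtered with filterByExpr, scaled by TMM and tested with edgeR 4.0.16 in R 4.3.3, estrogen against vehicle over all 6 libraries, with no replicate block and a threshold of 0.05 on the adjusted p. The steps were tested on simulated data. DESeq2 1.42.0, limma 3.58.1, other scalings and filters, a replicate block and left-out libraries were alternatives. Sums, shares and ratios have no test. Intervals of shares are exact (Clopper-Pearson).

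The members, the lists and most tests were chosen with earlier results of these data known. The rule named every constant and joining gene, diversity genes by counts, the 10 Ighv and 10 Igkv genes with the highest mean CPM, every Iglv gene, the leading variable gene of each chain in each library, the 5 members with the smallest p per direction, and the first 4 genes of each list. Enpp2, Xbp1, Mki67, Igll1, Vpreb2, Madcam1, Chst4, Cidec, Prdm1, Fkbp11, Fcrl1, Fcer2a, Fcmr, Fcgr3, Fcer1g and nearest copies were named after their values were seen. So were Irf4, Eaf2, Cd3d and Cd8a where they are named beyond the rule. A few genes that the rule names are not reported here.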

Additional observations from a re-analysis of the deposited data

How the results depend on the processing

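The main limits are 3 libraries per group, few counts per variable gene, and near-identical genes whose shared reads may be split. Among 20 tested members, 0 were called and 3 had an unadjusted p under 0.05. DESeq2 called 2, leaving out any 1 library gave 0 to 2, and leaving out estrogen replicates 1 and 3 together gave 1. The counts at an unadjusted p under 0.05 were 50 without the low-count filter (181 tested; 14.7% of all genes), 7 with DESeq2 (21.8%), 4 to 19 when any 1 library was left out (9.05 to 20.2%) and 7 without estrogen replicates 1 and 3 (9.64%). Part of this comes from more members being tested.

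With the replicate block 0 were called and 7 had an unadjusted p under 0.05 (21.2% of all genes), and the log2 fold change of Igkv1-117 turned to 0.27. Replicate numbers are those of the sample titles, while the columns for replicate 2 are numbered 3 (vehicle) and 2 (estrogen) and those for replicate 3 both 4. The numbers were not taken as pairs: deviations of same-numbered libraries correlated at -0.12, 0.16 and 0.29, and only in replicate 3 did both libraries correlate best with each other.

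Without estrogen replicates 1 and 3, the log2 ratios of summed classes were -0.76 for Ighm, -0.63 for Ighd, 0.43 for Igkc and -0.64 for lambda. The fitted log2 fold changes then were -0.62 for Ighd, -5.58 for Ighg2c, -0.53 for Ighg3, -0.75 for Ighm, -2.86 for Igkv1-110, -6.21 for Igkv4-59, -0.43 for Iglc1 and -0.83 for Iglc2. With any 1 library left out, the IgG log2 ratio lay between 2.54 and 4.86. The fitted log2 fold changes then spanned both signs for Igha (-0.16 to 1.05), Ighm (-0.44 to 0.95), Ighv11-2 (-0.60 to 3.68), Igkv1-110 (-0.61 to 3.42), Igkv1-117 (-3.02 to 2.39), Igkv1-135 (-1.49 to 0.77) and Igkv4-59 (-0.48 to 0.74). The cause was not tested. The other scalings left the directions of all named members and classes as they were, but by library totals the Ighv sums of the groups overlapped. The light to heavy chain ratios, added after seeing the data, kept their direction whichever library was left out.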
